A study of Homo sapiens and Mus musculus with 47 samples.

Results

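FAHD1, FAHD2A, FAHD2B and FAHD2CP are the 4 genes of the fumarylacetoacetate hydrolase domain family described here, taken by gene name from 57820 genes in each human count table. They were chosen because the chromosome 2 copies FAHD2A, FAHD2B and FAHD2CP were low together in libraries from cells given a control antisense oligonucleotide (ASO), so their levels in those libraries are given as a description without a test. All 4 genes were counted in all 23 libraries used, from 47 samples in the series. The series was made around Chrom-seq, in which a reader module for a chromatin mark brings the peroxidase APEX2 to chromatin and nearby RNA is tagged with biotin-aniline and pulled down.

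The libraries fall into 3 tables. HCT116 cells, a human colon cancer line, were profiled by Chrom-seq with the TAF3 reader of H3K4me3 (3 libraries) or with a reader-free Control (3 libraries). HEK293T cells, a human embryonic kidney line, were profiled by RNA-seq with the CBX7 reader of H3K27me3 (3 libraries) or as a Control (3 libraries). HEK293T cells were also profiled by RNA-seq after an ASO against the long noncoding RNA SETD5-AS1 (3 libraries), LINC00641 (2 libraries) or LINC00662 (3 libraries), or after the negative control ASO, labelled NC (3 libraries). The HCT116 cells expressed the GCN4 and APEX2 constructs for 48 h and were given 500 µM biotin-aniline for 30 min and 1 mM H2O2 for 1 min. The labels attach the same text to the RNA-seq samples, but the study's methods set the CBX7 RNA-seq beside untreated HEK293T cells, so which of these steps the RNA-seq Control and ASO cells received is not settled by the sources used here. The study's methods describe RNA-seq on total poly(A)+ RNA and ASO delivery by transfection. The study calls the replicates of its CBX7 RNA-seq and of Chrom-seq independent, without naming separate cultures, and the labels say nothing on this. The p-values therefore measure the spread between these libraries, which may in part be technical.

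FAHD proteins share the fold of fumarylacetoacetate hydrolase (FAH), the last enzyme of tyrosine degradation. FAHD1 is a mitochondrial enzyme that acts on acylpyruvates and decarboxylates oxaloacetate, a branch point of the citric acid cycle. FAHD2A and FAHD2B are close relatives of each other whose enzymatic roles are less well characterised, and FAHD2CP is annotated as a pseudogene of the same family.

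In hg19, FAHD2A (ENSG00000115042.5) lies at chr2:96068469-96082364 on the plus strand, FAHD2CP (ENSG00000231584.4) at chr2:96676299-96689128 on the plus strand and FAHD2B (ENSG00000144199.7) at chr2:97749320-97760619 on the minus strand. FAHD1 (ENSG00000180185.7) lies at chr16:1876968-1890208 on the plus strand. The starts of the 3 FAHD2 copies are shown because they hold bases by which reads can be told apart, with capitals at bases that differ between copies, including 3 bases absent from FAHD2CP. They come from coding exon sequence of FAHD2A at chr2:96071307-96071426 and FAHD2B at chr2:97757324-97757443 (minus strand), and from the exon of FAHD2CP at chr2:96679478-96679594, all read from GRCh37.
FAHD2A: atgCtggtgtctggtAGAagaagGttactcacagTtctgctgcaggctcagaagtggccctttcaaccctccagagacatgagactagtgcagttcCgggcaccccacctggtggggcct
FAHD2B: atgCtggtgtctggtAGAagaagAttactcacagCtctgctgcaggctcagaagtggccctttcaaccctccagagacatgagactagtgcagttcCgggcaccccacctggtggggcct
FAHD2CP: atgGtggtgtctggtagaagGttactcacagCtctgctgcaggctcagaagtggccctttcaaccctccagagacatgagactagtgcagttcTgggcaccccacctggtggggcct

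The coding sequences of FAHD2A and FAHD2B were both 942 bases long and differed at 15 bases, an identity of 98.4%. FAHD2CP differed from FAHD2B at 12 of 890 aligned bases (98.7% identity) and from FAHD2A at 21 of 890 (97.6%). All 3 copies were identical at 865 of these 890 columns. The longest run without any difference among the 3 covered coding bases 313 to 533 of FAHD2A and is shown because a read that falls inside its 221 bases carries nothing that names its gene.
FAHD2A, FAHD2B and FAHD2CP: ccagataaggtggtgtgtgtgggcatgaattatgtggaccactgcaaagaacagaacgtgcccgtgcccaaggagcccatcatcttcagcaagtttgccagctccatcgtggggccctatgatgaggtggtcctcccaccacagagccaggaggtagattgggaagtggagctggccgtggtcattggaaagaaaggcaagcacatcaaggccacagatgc

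To gauge how far counts could be exchanged between copies, each 100-base window of the genes was searched for an exact second copy. In the joined coding exons, 35.2% of the windows of FAHD2A (297 of 843) and 48.5% of those of FAHD2B (409 of 843) had an exact copy in another of the 4 genes. In the joined exons of FAHD2CP the share was 29.2% (234 of 801). FAHD1 had no such window among 564. Over all annotated exons, each read singly, 15.1% of the windows of FAHD2A (735 of 4873) had an exact copy elsewhere in GRCh37. The share was 25.7% in FAHD2B (481 of 1870), 25.7% in FAHD2CP (86 of 335) and 0 of 2712 in FAHD1. These exons come from a later GENCODE release than the one counted, in which FAHD2CP is shorter, at chr2:96679478-96687356. Over the whole gene spans, introns included, 12.4% of the windows of FAHD2A, 25.1% of FAHD2B and 23.4% of FAHD2CP had an exact copy elsewhere in GRCh37, against 0 of 13142 windows of FAHD1. Most windows of each copy were thus its own. The study's reads were longer than these windows, and the share of reads that match several places was not measured. Whether such reads were counted, and to which gene, is not given in the sources used here. Values of FAHD2A, FAHD2B and FAHD2CP are therefore uncertain as separate genes, and their sum is given beside them where it changes a call.

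**Figure D1:**
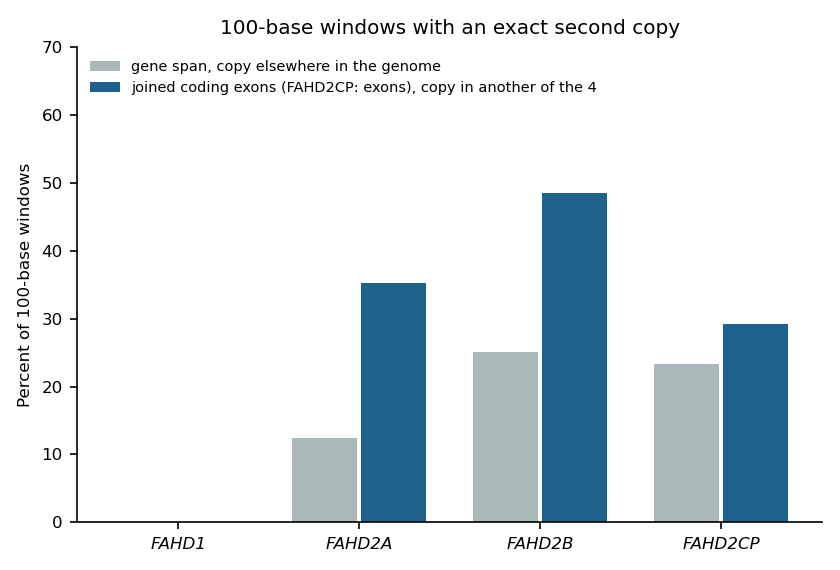
Share of 100-base windows with an exact second copy (vertical axis, percent) for each gene, over the whole gene span against the whole genome (grey) and over the joined coding exons, or exons for FAHD2CP, against the other 3 genes (blue). FAHD1 stands at 0 in both, and FAHD2B is highest in both, at 25.1% and 48.5%.

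Each gene was also read against its overlapping neighbours, because the sources used here do not say whether counting used strand. FAHD2B overlapped no gene in the table. FAHD2A overlapped the antisense pseudogene AC009238.6 over 841 bases, which had at most 10 counts in any library. The 3' end of FAHD2CP overlapped GPAT2, an acyltransferase gene on the other strand, over 1435 bases. GPAT2 had 350 to 417 counts in the HCT116 libraries and 0 to 2 in the HEK293T libraries. In HCT116 alone, part of the FAHD2CP counts may thus not be told apart from those of GPAT2. The overlap is one of gene spans, and whether counted exons overlap was not examined. In the later GENCODE release FAHD2CP ends at 96687356, before the span of GPAT2 as counted begins at 96687694. FAHD1 overlapped HAGH, which encodes glyoxalase II, over 228 bases at its start. HAGH had 253 to 1160 counts, and MEIOB, which overlaps FAHD1 over 6225 bases, had at most 15.

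Library totals ranged from 14213105 to 17445889 counts in HCT116, from 8258859 to 15330874 in the CBX7 table and from 11619315 to 15023098 in the ASO table. No 2 replicates were copies of each other among 22 pairs. The cell labels were checked with marker genes. EPCAM, an epithelial adhesion gene, was at 317 to 356 CPM (counts scaled by library total and TMM factor within a table) in HCT116 and at 5.12 to 23.2 CPM in HEK293T. NEFL, a neurofilament gene that HEK293T cells carry, was at 0 in all HCT116 libraries and at 160 to 301 CPM in HEK293T. Of the other HEK293T markers, NEFM, INA and LHX1 were also lower in HCT116. PAX2 (8.92 to 13.4 CPM in HCT116, 5.04 to 10.9 in HEK293T) and NES (80.1 to 109.7 and 47.9 to 140) overlapped between the lines. KRT8, KRT18, KRT20 and CDH1 of the colon markers were higher in HCT116. CDX1 and VIL1, also colon markers, were at or near 0 in HCT116, with at most 0.0613 and 0.637 CPM. CDX2, another colon marker, went against the label, at 10.5 to 14.8 CPM in HCT116 and 25.7 to 68.3 CPM in HEK293T.

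In the ASO libraries, the FAHD2 copies formed a low and a high state that followed the kind of ASO, while FAHD1 did not. FAHD2A had 192 to 214 counts in the NC ASO libraries, or 16.05, 18.6 and 17.3 CPM. The SETD5-AS1 ASO libraries stood at 69.0, 74.9 and 70.4 CPM. After the LINC00641 ASO it was at 66.9 and 70.6 CPM, and with the LINC00662 ASO at 55.4, 68.7 and 61.7 CPM. The highest NC ASO library was thus far under the lowest of the other 8. In these bulk libraries, fewer cells that carry an RNA and less RNA per cell cannot be told apart.

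FAHD2B showed the same separation. Its NC ASO libraries had 9.69, 9.30 and 8.63 CPM. The SETD5-AS1 ASO libraries had 38.4, 44.4 and 44.4 CPM, the LINC00641 ASO libraries 38.9 and 40.5 CPM, and the LINC00662 ASO libraries 34.3, 36.1 and 36.6 CPM. All 8 libraries with a targeting ASO were above the 3 NC ASO libraries. The pseudogene FAHD2CP was lowest of all against its level elsewhere, with 3.72, 3.04 and 4.13 CPM in the NC ASO libraries from 35 to 48 counts each. It had 23.9, 25.9 and 22.5 CPM with the SETD5-AS1 ASO, 25.4 and 23.7 CPM with the LINC00641 ASO, and 17.3, 17.2 and 17.5 CPM with the LINC00662 ASO.

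FAHD1 had 28.1, 42.7 and 31.4 CPM in the NC ASO libraries. It had 40.3, 40.2 and 32.9 CPM with the SETD5-AS1 ASO, 35.7 and 35.2 CPM with the LINC00641 ASO and 37.2, 39.7 and 40.4 CPM with the LINC00662 ASO. The NC ASO range held the values of all 8 other libraries, and NC ASO replicate 2 was the highest of the 11. That library was not set apart in the FAHD2 copies.

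Markers of the other cell line were read beside this separation. The summed level of the 8 colon markers was 635 to 705 CPM in the NC ASO libraries and 287 to 450 CPM in the other ASO libraries. KRT8, KRT18, CDX2 and VIL1 were higher in every NC ASO library than in the other 8, CDH1 was lower, EPCAM lay within the range of the others, and KRT20 and CDX1 were at or near 0. The 6 HEK293T markers summed to 563 to 588 CPM with the NC ASO and to 534 to 785 CPM with the others. The part of these markers in the separation was not tested.

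**Figure D2:**
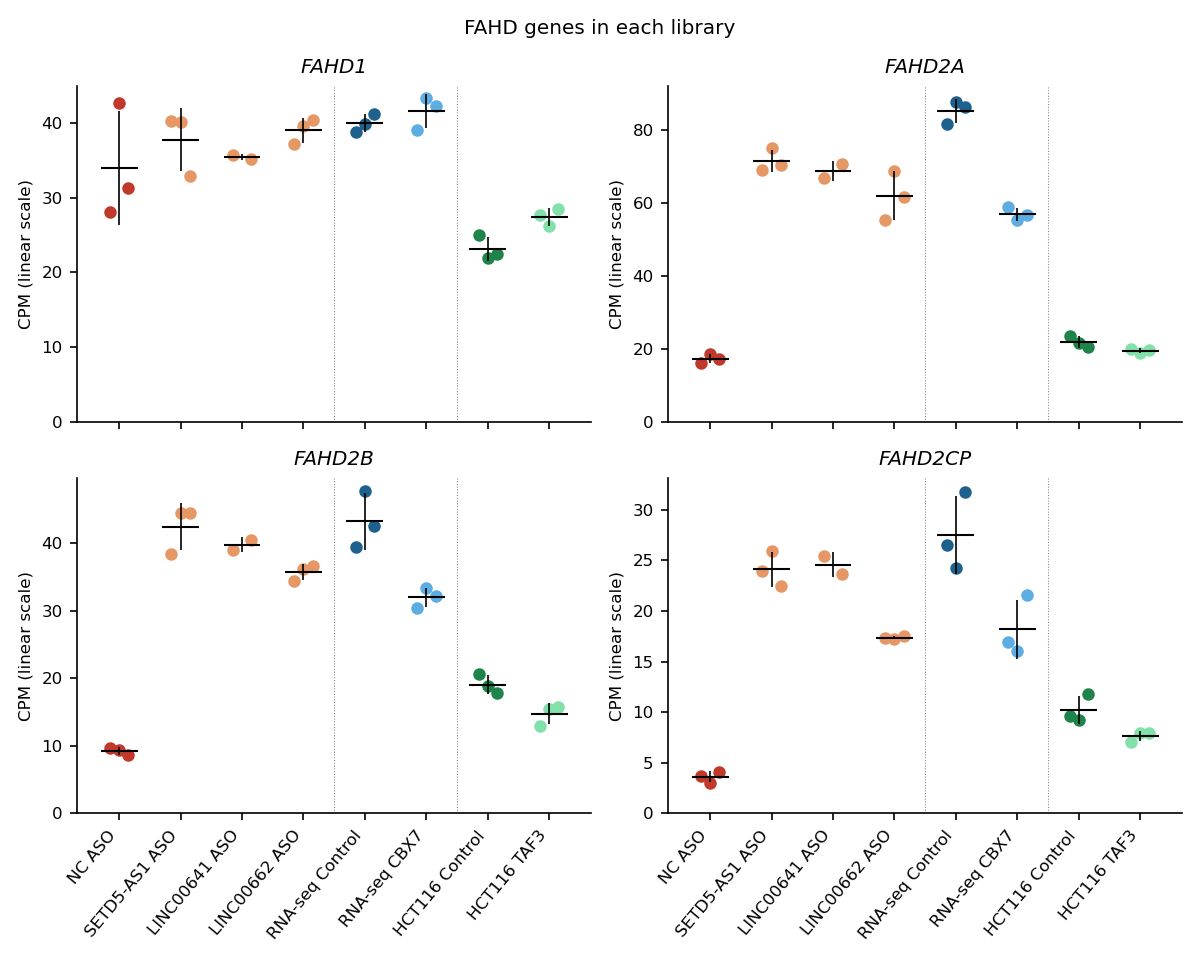
CPM of each gene (vertical axes, linear, from 0) in each library (points) by group, with the group mean (horizontal line) and SD (vertical line). Dotted lines part the 3 tables, which were normalised separately. The 3 NC ASO libraries lie below the other ASO libraries in FAHD2A, FAHD2B and FAHD2CP and among them in FAHD1.

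The 3 contrasts with the NC ASO share its 3 libraries and are therefore not independent of each other. On the log2 scale the fitted difference of the SETD5-AS1 ASO over the NC ASO was 2.05 ± 0.0915 (SE) for FAHD2A, 2.21 ± 0.108 for FAHD2B, 2.73 ± 0.147 for FAHD2CP and 0.16 ± 0.129 for FAHD1. For the LINC00641 ASO the differences were 2.01 ± 0.100, 2.12 ± 0.116, 2.77 ± 0.158 and 0.08 ± 0.132 in the same order. For the LINC00662 ASO they were 1.91 ± 0.0984, 2.02 ± 0.108, 2.32 ± 0.153 and 0.27 ± 0.1104. The FAHD2 copies were thus 3.76-fold to 6.82-fold higher with a targeting ASO than with the NC ASO. In these contrasts 12.9%, 11% and 11.6% of all tested genes were higher by the study's thresholds (adjusted p under 0.05 together with a log2 change of 0.75 or more), so a rise of that kind was common among genes, and nothing is read from the members here because they were chosen on it. By size, FAHD2CP ranked 41 of 18544 tested genes with the SETD5-AS1 ASO, 27 of 18503 with the LINC00641 ASO and 78 of 18562 with the LINC00662 ASO. FAHD2A ranked 146, 138 and 214 and FAHD2B 112, 104 and 174 in the same order. These ranks restate how the copies were chosen and lend them no support.

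The ASO libraries were set beside the RNA-seq Control libraries of the other HEK293T table. The 2 tables were normalised separately, so this is a description. FAHD2A had 81.5, 87.7 and 86.2 CPM in those Control libraries, FAHD2B 39.4, 47.7 and 42.5 CPM and FAHD2CP 26.5, 24.2 and 31.7 CPM. The NC ASO mean was 20.3% of the Control mean for FAHD2A, 21.3% for FAHD2B and 13.2% for FAHD2CP. The targeting ASO means were 72.7% to 83.9% for FAHD2A, 82.6% to 98.2% for FAHD2B and 63.1% to 89.3% for FAHD2CP. FAHD1 was at 85.0% with the NC ASO and at 88.7% to 97.7% with the others. The NC ASO libraries were thus furthest below Control in the FAHD2 copies, and they were not the only ones below it. All 8 targeting ASO libraries were below every Control library in FAHD2A (55.4 to 74.9 against 81.5 to 87.7 CPM), and the 3 LINC00662 ASO libraries were also below every Control library in FAHD2B and FAHD2CP. The tables differ in more than the ASO, and table and treatment cannot be told apart in this setting.

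The sequence of the NC ASO was set beside those of the genes. The study lists 1 negative control ASO of 20 bases, shown with its perfect target and the best ungapped site on the transcribed strand of each FAHD2 copy, with mismatches to the perfect target in capitals.
NC ASO: ttctccgaacgtgtcacgtt
Perfect target: aacgtgacacgttcggagaa
FAHD2A, FAHD2B and FAHD2CP: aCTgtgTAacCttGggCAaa
The site was the same in all 3 copies, at chr2:96069473-96069492 (FAHD2A), chr2:97759597-97759616 (FAHD2B, minus strand) and chr2:96677302-96677321 (FAHD2CP) in GRCh37, and it mismatched the perfect target at 8 bases. The longest complementary run in any FAHD2 copy was 7 bases. Among 977 gene spans of 11000 to 14000 bases that were tested in the ASO table, the median longest run was also 7 bases and the median of the fewest mismatches was 7. A run of at least 7 bases was found in 90.4% of these spans. FAHD1 had a longest run of 8 bases and also 8 mismatches at best. Among the targeting ASOs that the study lists, the longest run was 13 bases, for LINC00662-ASO-2 in all 3 FAHD2 copies. It had 5 mismatches at best there, and a run as long was found in 32.4% of the spans. Its longest run in FAHD1 was 9 bases. The search was ungapped and covered the annotated gene spans only. Whether any of these ASOs pairs with any of these RNAs was not tested.

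How counts divided among the copies was examined next, as shares of raw counts that are not adjusted for length. FAHD2A took 51.0% to 56.3% of the FAHD2 counts in the 8 targeting ASO libraries and 54.5% to 60.1% in the NC ASO libraries. FAHD2B took 29.3% to 32.3% and 28.7% to 32.9%. FAHD2CP took 14.1% to 19.4% with a targeting ASO, and 12.6%, 9.83% and 13.8% in the 3 NC ASO libraries (exact binomial 95% intervals 9.46% to 16.4%, 6.94% to 13.4% and 10.3% to 17.9%, counting error only). The shares of FAHD2A and FAHD2B thus overlapped between the ASO states, and all 3 NC ASO libraries were below the other 8 in the share of FAHD2CP. All 3 copies were low together, and no copy gained counts in the NC ASO libraries as another lost them. In the RNA-seq Control libraries the share of FAHD2CP was 15.2% to 19.8%.

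**Figure D3:**
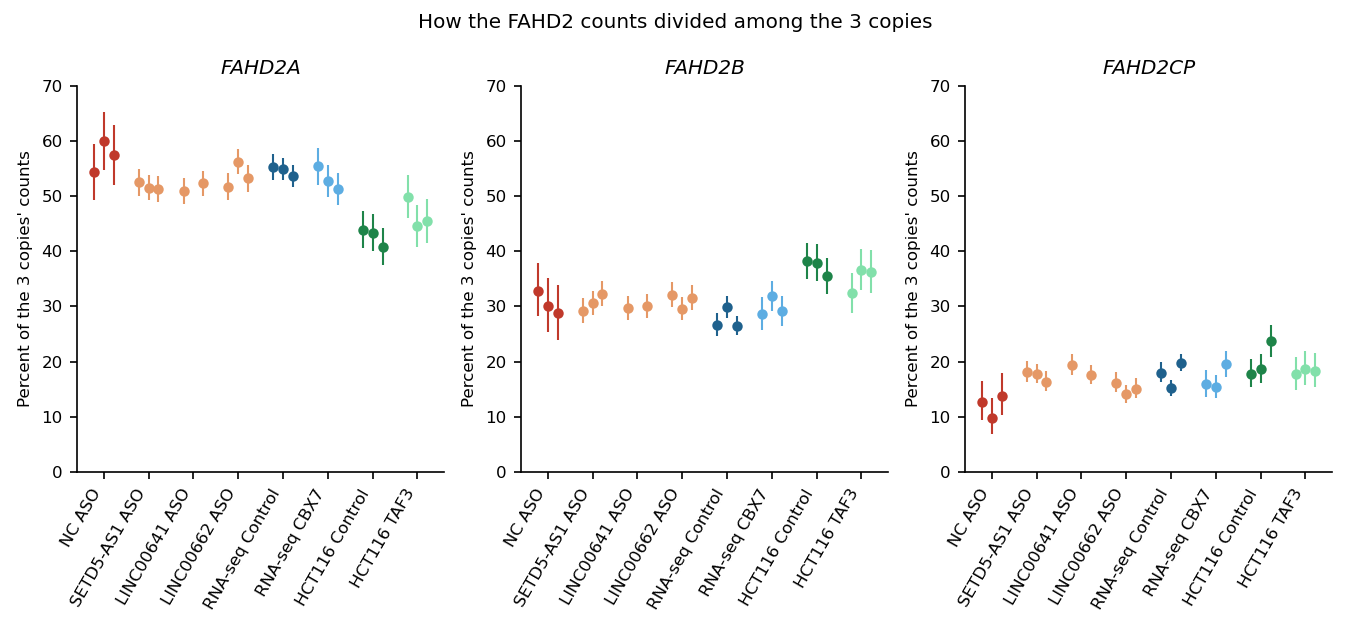
Percent of the summed FAHD2A, FAHD2B and FAHD2CP counts that each copy took (vertical axes) in each library (points, with exact binomial 95% intervals for counting error). FAHD2A holds 51.0% to 60.1% in the ASO libraries and 40.9% to 49.9% in HCT116, and FAHD2CP is lowest in the 3 NC ASO libraries.

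Across the 11 ASO libraries, the log2 CPM of FAHD2A and FAHD2B had a Pearson r of 0.99, with FAHD2CP at 0.98 and 0.99 against them, which mostly restates the gap between the NC ASO libraries and the others. Without the NC ASO libraries (n = 8) these values were 0.81, 0.71 and 0.76. FAHD1 was at -0.05, -0.38 and -0.26 with the 3 copies over the same 8 libraries. The points share library and depth, and the copies share sequence. The 5 genes most alike the FAHD2 copies over the 11 libraries, among 10903 genes whose mean count was 100 or more, were DOCK1 (r = 0.997), HK1 (0.996), HTT (0.996), ORC1 (0.995) and GFPT2 (0.995). They lie on chromosomes 10, 10, 4, 1 and 5. Their r values also mostly restate the gap between the NC ASO libraries and the others, on which the copies were chosen. No link between these genes and the copies is read from them. HTT, the huntingtin gene, had a mean of 48.8 CPM with the NC ASO and 255.9 CPM over the other 8 libraries, and ORC1, a subunit of the origin recognition complex, had 16.5 and 62.6 CPM.

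Between targeting ASOs, the copies could be tested, because these contrasts did not choose them. With the LINC00662 ASO, FAHD2CP was lower than with either of the other targeting ASOs, and its 3 libraries (17.2 to 17.5 CPM) did not overlap the others (22.5 to 25.9 CPM). How many of all genes were without overlap in these contrasts was not counted. FAHD2CP fell by 0.47 on the log2 scale against the SETD5-AS1 ASO (SE 0.0987, adjusted p = 0.00124, edgeR quasi-likelihood test) and by 0.50 against the LINC00641 ASO (SE 0.108, adjusted p = 0.00196). FAHD2B fell by 0.25 against the SETD5-AS1 ASO (SE 0.0839, adjusted p = 0.0303). Its difference from the LINC00641 ASO was -0.15 (95% interval -0.339 to 0.0305, adjusted p = 0.224).

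FAHD2A did not pass in either, though its libraries did not overlap those of the SETD5-AS1 ASO, at -0.20 against the SETD5-AS1 ASO (95% interval -0.377 to -0.0306, adjusted p = 0.0672) and -0.15 against the LINC00641 ASO (-0.335 to 0.0338, adjusted p = 0.236). FAHD1 was at 0.05 (-0.138 to 0.240, adjusted p = 0.703) and 0.14 (-0.0475 to 0.327, adjusted p = 0.284). In all, 2 of the 4 genes were lower against the SETD5-AS1 ASO, where 16.9% of 18417 tested genes were lower at an adjusted p under 0.05, and 1 of 4 was lower against the LINC00641 ASO, where 13.3% of 18363 were. None reached a log2 fold change of 0.75, which 8.57% and 6.15% of tested genes did downward. With the 3 copies summed as 1 feature, the sum was lower in both contrasts, by 0.26 (adjusted p = 0.0106) and 0.21 (adjusted p = 0.0424). The call of FAHD2B against the SETD5-AS1 ASO was lost with DESeq2 (adjusted p = 0.0669) and without any one of LINC00662 ASO replicates 1, 2 and 3 or SETD5-AS1 ASO replicates 2 and 3 (adjusted p = 0.0953, 0.0697, 0.0569, 0.118 and 0.0820).

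Between the LINC00641 and SETD5-AS1 ASOs, none of the 4 genes passed the edgeR test at either threshold, nor by DESeq2, and none had an unadjusted p under 0.05. The differences were -0.06 for FAHD2A (95% interval -0.238 to 0.128), -0.10 for FAHD2B (-0.304 to 0.112), 0.03 for FAHD2CP (-0.205 to 0.256) and -0.09 for FAHD1 (-0.316 to 0.134). In this contrast 5.9% of 18337 tested genes were called in either direction at an adjusted p under 0.05, and 1.72% with the fold threshold.

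The comparison of CBX7 with Control RNA-seq sets cells with the H3K27me3 reader beside cells that the study's methods describe as untreated, so the reader and the other steps of its expression cannot be told apart. All 3 FAHD2 copies were lower with CBX7 and their libraries did not overlap, while FAHD1 overlapped. The share of all genes without overlap was not counted, so nothing particular to the copies is read from it. FAHD2A had 58.9, 55.3 and 56.5 CPM with CBX7, against 81.5, 87.7 and 86.2 CPM in Control. Its fall was 0.58 on the log2 scale (SE 0.0790, adjusted p = 6.69e-05, edgeR quasi-likelihood test), to 66.8% of the Control level. FAHD2B had 30.4, 33.3 and 32.1 CPM with CBX7 and fell by 0.43 (SE 0.0958, adjusted p = 0.00297). FAHD2CP had 16.9, 16.1 and 21.6 CPM and fell by 0.60 (SE 0.133, adjusted p = 0.00317).

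FAHD1 had 39.1, 43.4 and 42.3 CPM with CBX7 and 38.8, 39.9 and 41.3 CPM in Control, a difference of 0.06 (95% interval -0.125 to 0.240, adjusted p = 0.657). Thus 3 of 4 genes were lower, where 15.4% of 18204 tested genes were lower at an adjusted p under 0.05. None of the 4 reached the log2 fold change of 0.75, which 3.48% of tested genes did downward and 4.17% upward. Since the 3 copies share sequence, they are not 3 separate observations, and as 1 summed feature they fell by 0.54. The CBX7 libraries held fewer counts (8258859 to 10995383) than the Control libraries (12109803 to 15330874), and the part of depth in these values was not tested. The summed colon markers were also apart, at 461 to 495 CPM with CBX7 and 323 to 349 CPM in Control, as were the summed HEK293T markers, at 459 to 470 and 697 to 814 CPM, and their part was not tested.

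Chrom-seq with TAF3 against the reader-free Control in HCT116 compares recovery of RNA near H3K4me3, a mark of active promoters, with recovery without a reader. FAHD1 was recovered more with TAF3 and the FAHD2 copies were not. FAHD1 had 27.8, 26.2 and 28.5 CPM with TAF3, against 25.0, 21.9 and 22.4 CPM in Control, and it rose by 0.25 on the log2 scale (SE 0.0908, adjusted p = 0.0265, edgeR quasi-likelihood test). FAHD2B had 12.9, 15.5 and 15.7 CPM with TAF3 and 20.5, 18.8 and 17.7 CPM in Control, and fell by 0.37 (SE 0.109, adjusted p = 0.00556). FAHD2CP had 7.08, 7.90 and 7.94 CPM with TAF3 and 9.57, 9.24 and 11.8 CPM in Control, and fell by 0.42 (SE 0.140, adjusted p = 0.0158). None of these 3 genes overlapped between the groups, and the share of all genes without overlap was not counted.

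FAHD2A had 19.96, 18.8 and 19.7 CPM with TAF3 and 23.6, 21.5 and 20.4 CPM in Control, and though its libraries did not overlap either, its difference of -0.16 did not pass (95% interval -0.360 to 0.0323, adjusted p = 0.198). The sum of the 3 copies fell by 0.29 (adjusted p = 0.00166). Thus 2 of 4 genes were lower and 1 of 4 higher, where 16.8% and 18.1% of 18731 tested genes were lower and higher at an adjusted p under 0.05, and none reached the log2 fold change of 0.75, which 3.28% did downward and 3.36% upward. The colon markers summed to 3166 to 3318 CPM with TAF3 and to 2627 to 2876 CPM in Control, and their part was not tested. The rise of FAHD1 was no longer called without Control replicate 2 or 3 or TAF3 replicate 1 or 3 (adjusted p = 0.120, 0.0852, 0.0754 and 0.0988). The fall of FAHD2B was lost without TAF3 replicate 1 (adjusted p = 0.0653), and that of FAHD2CP without Control replicate 3 or TAF3 replicate 1 (adjusted p = 0.146 and 0.0761).

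**Figure D4:**
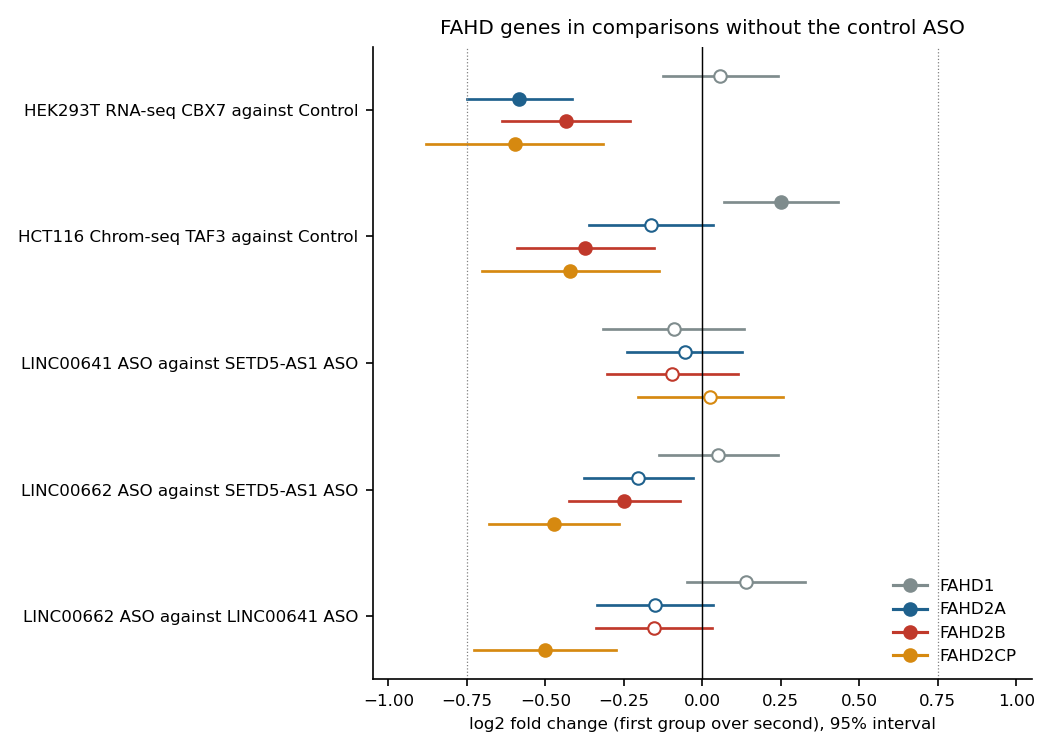
Log2 fold change of each gene (points, with 95% intervals from the fit) in the 5 contrasts that do not use the NC ASO libraries. Filled points passed an adjusted p under 0.05 and dotted lines mark 0.75 in either direction. FAHD2A, FAHD2B and FAHD2CP lie at -0.43 to -0.60 with CBX7, and no gene passes a dotted line.

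The order of the group means over all tables differed between FAHD1 and the copies, with the tables normalised separately and Chrom-seq set beside RNA-seq. For FAHD2A it ran from RNA-seq Control (85.1 ± 3.26 CPM, SD, n = 3) through the SETD5-AS1 ASO (71.4 ± 3.09), LINC00641 ASO (68.7 ± 2.64, n = 2), LINC00662 ASO (61.9 ± 6.68) and CBX7 (56.9 ± 1.82) to HCT116 Control (21.9 ± 1.62), HCT116 TAF3 (19.5 ± 0.622) and the NC ASO (17.3 ± 1.27). Libraries of the SETD5-AS1 and LINC00641 ASOs overlapped, as did those of the LINC00641 and LINC00662 ASOs and those of the LINC00662 ASO and CBX7. FAHD2B had its highest mean in RNA-seq Control (43.2 ± 4.19 CPM), next to the SETD5-AS1 ASO (42.4 ± 3.46) with overlapping libraries, and by library totals alone their order turned (42.8 and 44.3 CPM). The SETD5-AS1 and LINC00641 ASOs (39.7 ± 1.12, n = 2) also overlapped in FAHD2B, and below them the LINC00662 ASO (35.7 ± 1.20), CBX7 (31.95 ± 1.44), HCT116 Control (19.04 ± 1.42), HCT116 TAF3 (14.7 ± 1.54) and the NC ASO (9.21 ± 0.539) did not overlap their neighbours. FAHD2CP was highest in RNA-seq Control (27.5 ± 3.85 CPM), overlapping the LINC00641 ASO (24.5 ± 1.23, n = 2), which in turn overlapped the SETD5-AS1 ASO (24.1 ± 1.72). CBX7 (18.2 ± 2.95) and the LINC00662 ASO (17.3 ± 0.142) overlapped too, and FAHD2CP was lowest with the NC ASO, at 3.63 ± 0.552 CPM. For FAHD1 the highest mean was with CBX7 (41.6 ± 2.27 CPM) and the lowest in HCT116 Control (23.1 ± 1.63 CPM), with the NC ASO at 34.0 ± 7.66 CPM. In FAHD1 every pair of neighbours in the order overlapped apart from HCT116 TAF3 and HCT116 Control.

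The copies also divided their counts differently in HCT116. FAHD2A took 40.9% to 49.9% of the FAHD2 counts in the 6 HCT116 libraries, below the 51.0% to 60.1% of all 17 HEK293T libraries. FAHD2B took 32.4% to 38.2% in HCT116 and 26.5% to 32.9% in HEK293T, where 1 NC ASO library reached into the HCT116 range. FAHD2CP took 17.7% to 23.7%, with the overlap with GPAT2 given above. Cell line, table and assay differ together here and cannot be told apart.

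The promoters are shown to describe the sequence around each gene's start. They are RefSeq sequences of GRCh38.p14, from 250 bases before to 50 after each gene's start, and an entry was found for 3 of the 4 genes, not for FAHD2CP. Capitals mark the motifs TGACGTCA (the cyclic AMP response element) and CACGTG (an E-box), which were chosen after the sequences were seen.
FAHD2A, chr2:95402458-95402757, plus strand: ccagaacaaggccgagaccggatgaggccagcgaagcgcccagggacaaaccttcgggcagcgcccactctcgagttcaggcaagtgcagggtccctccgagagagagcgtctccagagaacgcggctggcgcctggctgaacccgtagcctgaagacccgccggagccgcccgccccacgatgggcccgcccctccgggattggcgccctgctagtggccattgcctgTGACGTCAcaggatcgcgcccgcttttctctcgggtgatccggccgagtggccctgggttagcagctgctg
FAHD2B, chr2:97094833-97095132, minus strand: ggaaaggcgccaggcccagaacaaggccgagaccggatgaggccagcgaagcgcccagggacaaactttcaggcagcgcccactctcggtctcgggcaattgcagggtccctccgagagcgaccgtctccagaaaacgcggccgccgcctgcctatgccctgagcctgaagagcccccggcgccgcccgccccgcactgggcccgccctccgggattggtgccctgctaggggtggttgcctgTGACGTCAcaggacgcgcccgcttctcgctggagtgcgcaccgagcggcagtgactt
FAHD1, chr16:1826956-1827255, plus strand: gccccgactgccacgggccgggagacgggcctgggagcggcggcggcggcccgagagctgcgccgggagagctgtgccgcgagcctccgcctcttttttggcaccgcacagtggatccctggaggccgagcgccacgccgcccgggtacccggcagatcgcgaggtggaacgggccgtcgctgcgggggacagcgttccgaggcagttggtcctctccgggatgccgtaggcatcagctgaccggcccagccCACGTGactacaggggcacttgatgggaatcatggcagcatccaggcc

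The promoters of FAHD2A and FAHD2B were identical at 244 of 285 aligned bases (85.6%), less than their coding sequences. Both held TGACGTCA, which reads the same on both strands, at -21 and -7 from the gene start. It was found in 649 of 35116 promoters of the same length (1.85%) and not in that of FAHD1. Both also held CCAAT on the reverse strand, found on either strand in 34.6% of promoters. FAHD1 held CACGTG at position 3 after the start, found in 7.26% of promoters. The promoters of FAHD2A and FAHD2B share most of their bases, so their matches are not separate observations. The motifs were chosen on these sequences, so the shares of promoters are no test. These matches describe the letters only.

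Genes of the metabolism around these enzymes were followed as 2 lists. Of 17 genes that handle oxaloacetate and pyruvate, most were not called at the study's thresholds. With CBX7, 16 were tested, none was higher and 1 was lower (4.17% and 3.48% of all tested genes), and the list's median log2 fold change was 0.01 against -0.01 over all genes. The gene that fell was PCK1, the cytosolic carboxykinase that turns oxaloacetate into phosphoenolpyruvate, by 1.20 (SE 0.153, adjusted p = 4.29e-05, edgeR). In HCT116, all 17 were tested and 1 was lower (3.28% of all tested genes), with a median of 0.21 against -0.01 over all genes. That gene was PCK2, the mitochondrial carboxykinase, at 39.3 ± 2.66 CPM with TAF3 and 87.3 ± 14.4 CPM in Control (SD, n = 3), and fell by 1.15 (adjusted p = 1.38e-15, edgeR).

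Between targeting ASOs, the LINC00641 against SETD5-AS1 contrast called none of 16 by edgeR or DESeq2 (1 at an unadjusted p under 0.05). The LINC00662 ASO had 1 lower gene of 16 against the SETD5-AS1 ASO and 1 of 17 against the LINC00641 ASO, where 8.57% and 6.15% of all tested genes were lower. That gene was ME1, cytosolic malic enzyme, at 12.7 ± 0.938 CPM with the LINC00662 ASO and 34.2 ± 3.87 CPM with the SETD5-AS1 ASO (SD, n = 3), and fell by 1.42 (adjusted p = 1.07e-08, edgeR). Against the NC ASO, 1 of 16 was higher with the SETD5-AS1 ASO, where 12.9% of all tested genes were. With the LINC00641 ASO 1 of 17 was higher and 1 lower (11% and 11.5% of all tested genes), and with the LINC00662 ASO 2 of 17 were lower (13.3%), so these counts lay near or under the background. The list's median was 0.09, 0.21 and -0.02 in this order, against 0.03, 0.0042 and 0.0013 over all genes. ACLY, which splits citrate into acetyl-CoA and oxaloacetate, was higher with the SETD5-AS1 and LINC00641 ASOs, by 0.90 and 0.93. PCK1 was lower by 1.27 with the LINC00641 ASO and by 1.28 with the LINC00662 ASO, and ME1 by 1.19 with the latter. PC, the carboxylase that makes oxaloacetate from pyruvate, was called in no contrast, and neither was SDHA, the flavoprotein subunit of succinate dehydrogenase. PC was at -0.70 in HCT116 and SDHA at 0.53 with the LINC00662 ASO over the NC ASO, both under the fold threshold.

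Of 5 genes of tyrosine degradation, 1 of 4 tested was higher than with the NC ASO after the SETD5-AS1 ASO and 1 of 4 after the LINC00641 ASO, where 12.9% and 11% of all tested genes were. That gene was FAH itself, whose domain names the family, at 28.1 ± 1.87 CPM with the SETD5-AS1 ASO and 14.0 ± 2.17 CPM with the NC ASO (SD, n = 3), a log2 difference of 1.00, and of 0.81 with the LINC00641 ASO. With the LINC00662 ASO the difference of FAH was 0.61 (adjusted p = 0.000247, edgeR), under the fold threshold. In that contrast 2 of 4 were lower, where 13.3% of all tested genes were. They were HGD, which opens the ring of homogentisate, at 0.0485 ± 0.0841 CPM against 0.443 ± 0.258 CPM, and HPD, the enzyme that makes homogentisate, at 0.620 ± 0.306 CPM against 1.49 ± 0.605 CPM (SD, n = 3), both from few counts. HGD passed the count filter through the NC ASO libraries, where it was higher, so the 2 of 4 depends in part on that filter. HPD was also the 1 of 3 lower with the LINC00662 than with the SETD5-AS1 ASO (8.57% of all tested genes). FAH was not called in the 5 contrasts without the NC ASO.

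With CBX7, 1 of 4 tested was higher (4.17% of all tested genes). That gene was TAT, the first enzyme of the route, at 0.834 ± 0.410 CPM against 0.0492 ± 0.0436 CPM (SD, n = 3) and so from few counts. TAT passed the count filter through the CBX7 libraries, where it was higher, so nothing is read from this rise. In HCT116 none of 5 was called by edgeR or DESeq2, with 1 at an unadjusted p under 0.05. None was called by either tool for the LINC00641 over the SETD5-AS1 ASO (0 of 5 at an unadjusted p under 0.05) or for the LINC00662 over the LINC00641 ASO (1 of 3).

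The genes around the chromosome 2 copies differed from the NC ASO in both directions. Of 66 genes within 250 kb of a copy, 22 were tested in each of these contrasts. With the SETD5-AS1 ASO, 5 were higher and 8 lower than with the NC ASO at the study's thresholds, where 12.9% and 11.5% of all tested genes were. The LINC00641 ASO had 5 higher and 6 lower (11% and 11.5% of all tested genes), and the LINC00662 ASO had 2 higher and 8 lower (11.6% and 13.3%). Some of the lower genes passed the count filter through the NC ASO libraries, so these numbers depend in part on it. TRIM43, for example, was at 0.288, 0 and 0.0914 CPM with the SETD5-AS1, LINC00641 and LINC00662 ASOs. It was at 3.76, 3.65 and 3.63 CPM with the NC ASO in these contrasts and was not tested between targeting ASOs. ZNF514 and ZNF2, adjacent zinc finger genes near FAHD2A, went opposite ways in all 3. ZNF514 was at 31.2 ± 3.47 CPM with the NC ASO and 68.2 ± 7.89 CPM with the SETD5-AS1 ASO, and ZNF2 at 26.0 ± 1.02 and 10.7 ± 0.323 CPM (SD, n = 3). ANKRD36, near FAHD2B, was higher by 0.76 and 1.02 on the log2 scale with the SETD5-AS1 and LINC00641 ASOs and lower by 1.48 with the LINC00662 ASO. ANKRD36C, near FAHD2CP, was higher by 0.82 and 1.39 with the first 2 ASOs and differed by -0.54 with the LINC00662 ASO (adjusted p = 0.000153, edgeR), under the fold threshold. ANKRD36 and ANKRD36C are related in sequence. How much exact sequence they share was not measured, so their counts may carry the same kind of uncertainty as those of the FAHD2 copies.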

How the data were processed

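Raw read counts per gene were used as the authors deposited them, without normalization, in 3 tables of 57820 genes. According to the study's methods and the submitters' processing notes, reads were checked with FastQC 0.11.8, trimmed with fastp 0.23.1, aligned to hg19 with HISAT2 2.1.0 and counted with featureCounts 2.0.1, and the study tested with DESeq2 1.34.0. The gene length in the tables spans introns. Exon positions for the sequence comparisons were taken from a later GENCODE release than the one used for counting. Strand and multi-mapping settings are not given in the sources used here.

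Groups came from sample titles. For each contrast the libraries of its 2 groups alone were fitted with edgeR 4.0.16, quasi-likelihood test, in R 4.3.3 (TMM, summed count above 3 per library, Benjamini-Hochberg over all tested genes), with thresholds of 0.05 and 0.75 (log2). The procedure was tested on simulated counts. SE is the fold change divided by the root of its F statistic. CPM used library totals and TMM factors within a table. PCR reads are not independent molecules, so binomial intervals cover counting error only. The HEK293T Chrom-seq comparisons (TAF3 against TAF3Control, CBX7 against dPC) were planned and not run, and that table and the mouse tables are not analysed here. No column of the tables used lacked a listed sample.

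Members, gene lists and tests were chosen with earlier results of these data known. Named genes were the members, genes overlapping them, neighbours within 250 kb called in at least 2 contrasts with the NC ASO at a mean of at least 100 counts in each, called genes of the 2 lists with FAH, PC and SDHA, and the 5 genes most correlated with the copies. TRIM43, a neighbour with fewer counts, is named to show the count filter. The ASO and promoter motif searches were added after the data were seen. The NC ASO sequence is the one the study lists, and which of its several targeting ASOs made each library is not given in the sources used here. Alternatives were DESeq2 1.42.0, scaling by DESeq2 size factors or by library size alone, filterByExpr or no filter, a block for the replicate number, summed copies, a joint fit of the 4 ASO groups, omission of each library, copy shares without FAHD2CP or over pooled counts, and levels across tables by library totals or by one TMM over all libraries.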

Additional observations from a re-analysis of the deposited data

How the results depend on the processing

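The near-identity of the copies and counting settings that are not given limit each single FAHD2 copy, and groups of 2 or 3 libraries limit small differences. Of 259 alternative values in the 5 tested contrasts, 234 kept their direction and side of the threshold, 13 lost the call, 7 gained it and 5 turned sign without a call under either setting. Those were FAHD2CP for the LINC00641 over the SETD5-AS1 ASO (-0.0310 with library size alone, -0.0530 with the copies summed, and -0.0207 and -0.0227 without LINC00641 ASO replicate 2 and SETD5-AS1 ASO replicate 3, in a range of -0.0227 to 0.0813 over omitted libraries) and FAHD1 for the LINC00662 over the SETD5-AS1 ASO (-0.0389 without SETD5-AS1 ASO replicate 3, in a range of -0.0389 to 0.105). All alternatives in the CBX7 contrast kept their calls. The planned HEK293T Chrom-seq comparisons were not run.

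With the copies summed, the value was -0.29 in HCT116, -0.26 against the SETD5-AS1 ASO and -0.21 against the LINC00641 ASO (LINC00662 ASO over each), all called, where FAHD2A alone was not, nor FAHD2B in the last. Against the NC ASO the sums were 2.20 (SETD5-AS1), 2.16 (LINC00641) and 1.9996 (LINC00662), which moved FAHD2CP in all 3 and FAHD2A in the first 2. For the LINC00662 over the SETD5-AS1 ASO, DESeq2 gave FAHD2B -0.24 and no call, and library size alone gave FAHD2A -0.24 and a call. Library size alone gave 2.19 and 2.35 for FAHD2A and FAHD2B with the SETD5-AS1 ASO over the NC ASO, where it moved the median of all genes to 0.17 from 0.03, and 2.20 for FAHD2B with the LINC00641 ASO. The joint fit of all ASO groups gave FAHD2B 1.95 with the LINC00662 ASO. FAHD2A as a share of FAHD2A and FAHD2B alone was 53.5% and 57.0% in HCT116 Control and TAF3, 66.4% and 64.03% in RNA-seq Control and CBX7, 65.2% with the NC ASO and 62.8%, 63.4% and 63.3% with the SETD5-AS1, LINC00641 and LINC00662 ASOs, higher because FAHD2CP is left out of the sum. As a percent of RNA-seq Control, the ASO group means moved by less than their SD under other scalings, while the means themselves could move by more (FAHD1 in HCT116 Control from 23.1 to 25.2 CPM with one TMM over all libraries). Apart from that, the cause of these moves was not tested.

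Leaving out 1 library at a time gave 0.21 to 0.31 for FAHD1, -0.42 to -0.29 for FAHD2B and -0.49 to -0.30 for FAHD2CP in HCT116. For the LINC00662 over the SETD5-AS1 ASO it gave -0.28 to -0.13 for FAHD2A, which was called without LINC00662 ASO replicate 2 (-0.28, adjusted p = 0.0274, edgeR), and -0.31 to -0.21 for FAHD2B. For FAHD1 with the LINC00641 ASO over the NC ASO the range was -0.0610 to 0.26, and the sign turned without NC ASO replicate 1 (-0.0610). Where LINC00641 was left with 1 library, that library is assumed to vary like the other group.

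Same-numbered replicates correlated in their deviations from the group means at -0.10 to 0.24 over all contrasts, and in no contrast of 3 pairs were all above 0.1. They were at 0.07 to 0.12 for the LINC00662 over the SETD5-AS1 ASO, where all differently numbered pairs were negative. With CBX7 over Control they were at 0.08 to 0.24, where most differently numbered pairs were negative. Deviations from a group mean cancel out over its replicates. Negative values of differently numbered pairs thus follow in part from positive same-numbered ones and are no added sign of pairing. Whether the numbers pair the libraries is not settled. With the replicate block, FAHD2A was called for the LINC00662 over the SETD5-AS1 ASO (-0.21, adjusted p = 0.0271, edgeR), and FAHD1 for the LINC00641 over the NC ASO was -0.0354. The block changed no other call.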
